A study of Bos taurus with 72 samples.

Results

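The gene described here is ENSBTAG00000046158, bovine complement factor B (CFB), 1 row of the 24616 genes in the deposited count table. It was chosen by its stage levels in earlier results on these libraries, in which pulled stood far above entry and close-out, so those levels and differences are given as a description with no test. Neither the count table nor the RefSeq gene table at hand pairs the identifier with a symbol. The name CFB is therefore taken as given and was not checked against the data. In the RefSeq annotation of ARS-UCD2.0, CFB lies between NELFE and C2. No sequence of the gene was at hand to print.

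The study followed male beef cattle in a feedlot and measured the transcriptome of their blood. The series title names bovine respiratory disease, a pneumonia complex of feedlot cattle, as its subject. Each of 24 animals gave 1 library at entry, 1 when it was pulled and 1 at close-out, so each stage has 24 libraries of the same animals. In feedlot practice an animal is pulled from its pen for examination when it looks ill, and close-out is the end of feeding. The sources used here give no age, breed, diagnosis, treatment, pathogen or days between samplings. Libraries were made only for animals whose RNA passed a quality limit, per the labels. No untreated or unpulled animals sampled at the same times were analysed here, so stage, age and time on feed cannot be told apart.

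Complement is a cascade of plasma proteins that marks microbes for uptake, calls in white cells and can lyse membranes. Factor B serves the alternative pathway: it binds to the activated form of C3, is cut by factor D, and its Bb fragment becomes the protease of the C3 convertase that amplifies the cascade. Most plasma factor B comes from the liver, but macrophages and other cells also make it, and in human and mouse cells interferon-gamma and bacterial lipopolysaccharide raise its transcript. The libraries come from whole blood, so a change in the share of a cell type and a change in RNA per cell cannot be told apart.

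Reads were counted per gene by the authors, and levels below are on the log2 CPM scale, which divides counts by library size, after TMM scaling with a prior count of 2. The libraries held between 8.24 M and 29.1 M counts (M, megareads). The 2 libraries labelled pulled of animals 9 and 12 went against their labels. Over 100 genes whose levels repeat within an animal, the one labelled as animal 9 had an r of -0.08 with that animal's entry library but of 0.97 with the entry library of animal 11. Between these libraries the chi-square of counts divided by degrees of freedom was 1.46, while the next closest of 2556 pairs of libraries was at 29.1. The one labelled as animal 12 had an r of 0.15 with that animal's entry library, of 0.13 with its close-out library and of 0.22 at most with any other. Among the other libraries, same-animal pairs reached at least 0.82 and different animals at most 0.48, across genes that are no replicates. The 100 genes were chosen in these libraries for repeating between stages in the 22 animals other than 9 and 12. The high same-animal values of those 22 are thus in part set by the choice. The entry and close-out libraries of animals 9 and 12, not used in it, also reached at least 0.82 with each other. The chi-square did not rest on these 100 genes. Both libraries are kept under their labels below unless stated. The entry libraries also fell into sets by the number in their library titles, 6 animals with numbers above 98 and 18 with numbers up to 98. This division was seen in these data and was no part of the design, so values are given for each set.

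CFB was low in most animals at entry, high in nearly all at pulled and low in all at close-out. At entry its level ran from 0.99 to 7.81 log2 CPM with a median of 2.58, on 42 to 2638 reads. At pulled it ran from 2.34 to 9.28 with a median of 5.68, on 76 to 11535 reads. At close-out it ran from 1.43 to 3.61 with a median of 2.10, on 41 to 190 reads. As CPM the median was 5.86 in entry libraries, 51.5 in pulled libraries and 4.17 in close-out libraries. Of the pulled libraries, 23 lay above every close-out library, and 1, from animal 17, lay within the close-out range. The next lowest pulled library stood at 3.92 log2 CPM. The entry libraries overlapped both other stages: 18 lay within the close-out range, 5 above it and 1 below it.

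**Figure D1:**
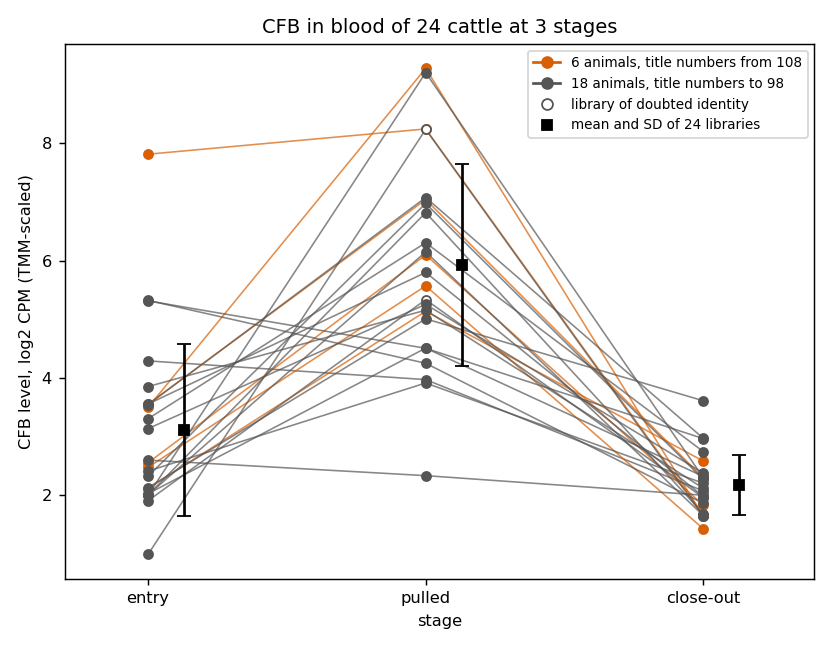
CFB level in log2 CPM (vertical axis) at the 3 stages (horizontal axis), with 1 point per library, a line joining the libraries of an animal, and black squares with bars for the mean and SD of 24 libraries. The pulled points spread from 2.34 to 9.28, the close-out points from 1.43 to 3.61, and most entry points sit low with 4 above 4.

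Across the 24 animals CFB averaged 3.12 ± 1.46 log2 CPM at entry, 5.92 ± 1.72 at the pulled stage and 2.18 ± 0.52 at close-out (SD). Leaving out the doubted libraries of animals 9 and 12, the pulled mean was 5.85 ± 1.72 (n = 22). The spread between animals was wider than counting error at every stage, and most of all at entry and pulled. Read counting alone would give an SD of 0.14 in entry libraries, 0.06 in pulled libraries and 0.17 in close-out libraries on the log2 scale. At close-out the spread was thus narrower, and counting error was a larger part of it.

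Within animals, the pulled level minus the entry level averaged 2.81 ± 2.25 log2 units (SD, n = 24) and was positive in 20 animals. The fitted log2 fold change for pulled against entry was 2.91 (SE 0.43), a 7.54-fold higher level, and 1 other gene of 12655 had a larger one. This comparison chose the gene, so nothing is read from its size. Over all genes, 20.2% passed as higher and 21.9% as lower in it (edgeR quasi-likelihood test, adjusted p under 0.05). When only library totals were used for scaling, 74.4% of the genes that passed were lower, against 52% with TMM, and all genes had a median log2 fold change of -0.19, against -0.03. For CFB itself the log2 fold change with library totals was 2.82. Without animals 9 and 12, the difference averaged 2.58 ± 2.13 and was positive in 18 of 22 animals. The fitted log2 fold change was then 2.65 (SE 0.44). The rank among genes given above comes from the fit that includes the doubted libraries.

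The size of the rise ranged widely between animals. The change exceeded 2 log2 units in 17 of 24 animals and 4 log2 units in 6. Without animals 9 and 12 it did so in 15 of 22 and in 5. Animal 19 had 9.20 log2 CPM at pulled and 2.00 at entry, on 11535 and 42 reads. Animal 2 had the highest library of all, 9.28 at pulled, which was 5.78 above its entry level. Animal 12 showed the largest difference, 8.24 in the library labelled pulled and 0.99 at entry, but that pulled library matched no animal. Animal 9 had 5.34 in its doubted pulled library, close to the 5.32 at entry of animal 11, which that library resembles.

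In the 4 remaining animals CFB was lower at pulled than at entry. Animal 11 had 4.25 log2 CPM at pulled and 5.32 at entry, animal 16 had 4.51 and 5.31, and animal 1 had 3.97 and 4.29. These animals had the highest entry levels of the 18 with title numbers up to 98. Animal 17 had 2.34 at pulled and 2.60 at entry and was low at every stage, with 2.00 at close-out.

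At close-out CFB was below its pulled level in 24 of 24 animals, with differences between -7.63 and -0.33 log2 units. The close-out level minus the pulled level averaged -3.75 ± 1.90 (SD, n = 24), and -3.64 ± 1.88 over the 22 animals other than 9 and 12. The fitted log2 fold change for close-out against pulled was -3.96 (SE 0.43), and -3.80 (SE 0.44) without animals 9 and 12. In this comparison 13.3% of genes passed as higher and 13.9% as lower (edgeR, adjusted p under 0.05). With library totals 76.2% of the genes that passed were higher, against 48.8% with TMM, all genes had a median log2 fold change of 0.13, against -0.01, and CFB had -3.88. This difference was part of the choice of the gene too, so nothing is read from its size.

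Close-out stood below entry by less. The close-out level minus the entry level averaged -0.94 ± 1.56 (SD, n = 24) and was negative in 18 animals and positive in 6. The median difference was -0.59, and animal 5 alone differed by -6.14. The fitted log2 fold change for close-out against entry was -1.05 (SE 0.40). It was -2.01 (SE 0.45) without the animal as a block and -0.86 without animal 5. Over all genes, 10.2% passed as higher and 12% as lower in this comparison (edgeR, adjusted p under 0.05). With library totals the share of higher genes among those that passed was 58.3%, against 46.1% with TMM. Its entry and close-out libraries both enter the differences that chose the gene.

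**Figure D2:**
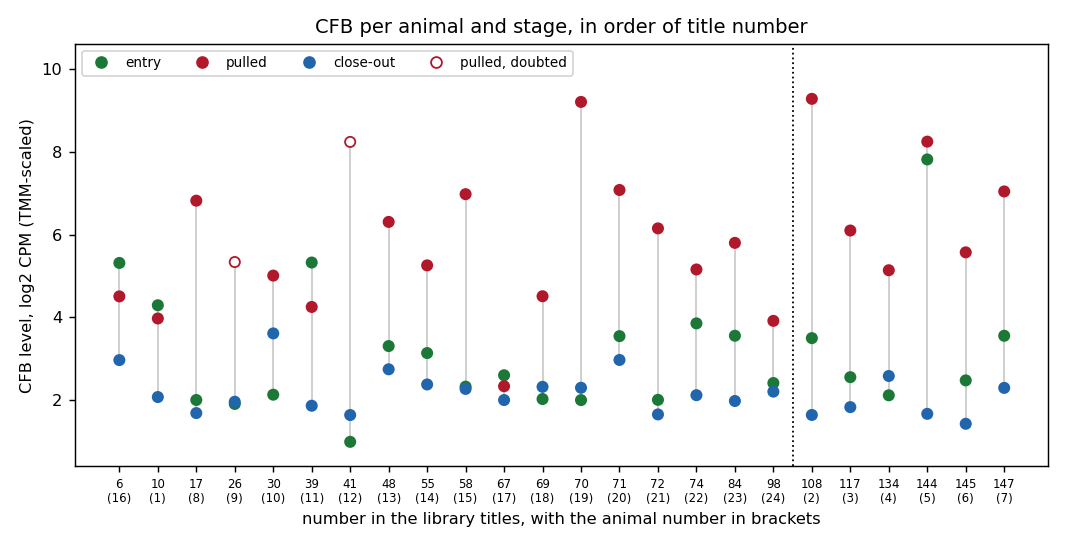
CFB level in log2 CPM (vertical axis) for every animal in order of the number in its library titles (horizontal axis, animal number in brackets), coloured by stage. Open symbols mark the 2 libraries of doubted identity, and the dotted line separates the 18 animals with numbers up to 98 from the 6 with higher numbers. In 20 animals the pulled point lies above the entry point, and in all 24 the close-out point lies below the pulled point.

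Both title-number sets showed the pattern. In the 6 animals with numbers above 98, the median level was 3.03 log2 CPM at entry, 6.57 in pulled libraries and 1.75 at close-out. In the 18 animals the medians were 2.51, 5.29 and 2.16 at the same stages. Pulled stood above entry in 6 of the 6 animals and in 14 of the 18, and the 4 exceptions described above all belong to the 18. Without animals 9 and 12, which are among the 18, it stood above in 12 of 16. The fitted log2 fold change for pulled against entry was 3.16 (SE 0.79) in a fit of the 6 and 2.77 (SE 0.49) in a fit of the 18. For close-out against pulled it was -4.80 (SE 0.82) and -3.69 (SE 0.48). For close-out against entry it was -1.64 (SE 0.79) and -0.92 (SE 0.45). The difference between the sets was not tested, since the sets were seen in these libraries. The entry levels of CFB in the sets overlapped, with a range of 2.12 to 7.81 in the 6 animals and 0.99 to 5.32 in the 18. Within the 18, no relation of CFB to the title number passed at any stage, with Pearson r of -0.24 at entry (n = 18), 0.11 at pulled (n = 16) and -0.13 at close-out (n = 18), and Spearman rho of -0.03, 0.15 and -0.01 at those stages (two-sided permutation tests, adjusted p of 0.689 for each r and 0.98 for each rho over 3 stages).

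Whether an animal kept its place among the others was asked of the stages in pairs, which leaves the stage means out. No relation passed the test. Between pulled and entry, Pearson r was 0.09 (permutation p = 0.687) and Spearman rho -0.10 (p = 0.649) over the 22 animals with undoubted libraries. Between close-out and pulled, r was -0.17 (permutation p = 0.446) and rho -0.17 (p = 0.445) over the same 22. Between close-out and entry, r was -0.01 (permutation p = 0.954) and rho 0.10 (p = 0.639) over 24 animals. The adjusted p was 0.954 for each r and 0.649 for each rho over the 3 pairs. Without the 2 animals farthest from the median on the x axis, r was -0.11, -0.10 and 0.29 in that order of pairs. Within the 18 animals r was -0.33 for pulled with entry (n = 16, permutation p = 0.211), 0.06 for close-out with pulled (n = 16, p = 0.824) and 0.22 for close-out with entry (n = 18, p = 0.38). Within the 6 animals the pulled and entry levels had an r of 0.61 and a rho of 0.83 (exact permutation p = 0.269 and 0.0583), while r was -0.39 for close-out with pulled (exact permutation p = 0.461) and -0.30 for close-out with entry (p = 0.608). Animal 5, high at entry with 7.81 log2 CPM, was also high at pulled with 8.24 and low at close-out with 1.67.

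**Figure D3:**
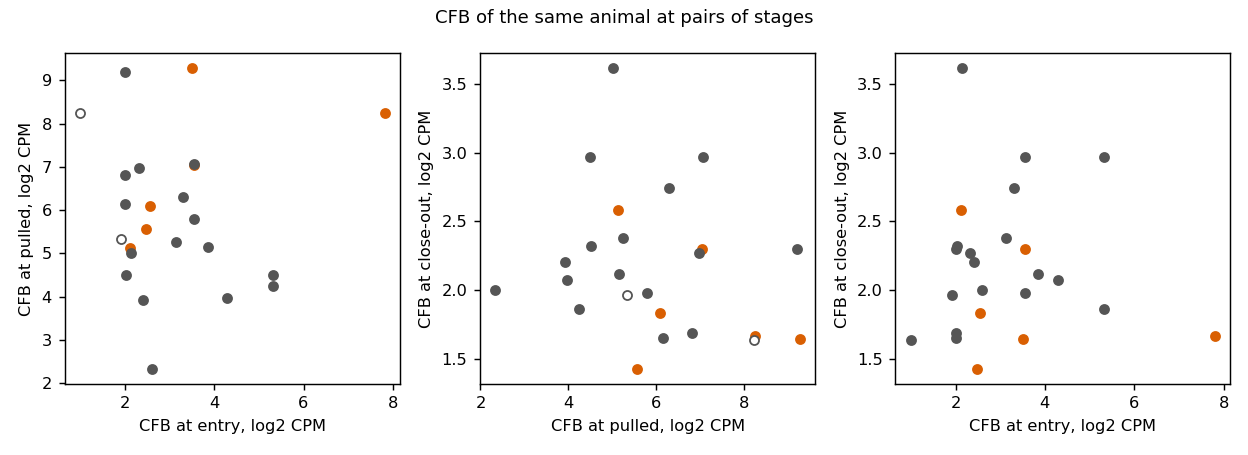
CFB level of the same animal at 2 stages, in log2 CPM on both axes, with 1 point per animal, orange for the 6 animals with title numbers above 98 and grey for the 18. Open points carry a library of doubted identity. The points form no line in any panel, and the Pearson r values without the doubted libraries were 0.09, -0.17 and -0.01 from left to right.

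Within a stage, by contrast, the level of CFB in an animal went along with the levels of many other genes. Each stage was fitted on its own, with the CFB level as the explanatory term and the title-number set as a further term. The relation is between animals of 1 stage and does not use the stage differences that chose the gene. At entry, over 24 libraries, 2287 of 12654 genes (18.1%) were higher in animals with more CFB and 1599 (12.6%) were lower (edgeR quasi-likelihood test, adjusted p under 0.05). At pulled, over the 22 undoubted libraries, 2013 genes (15.9%) were higher with CFB and 1742 (13.8%) were lower. At close-out, over 24 libraries, 307 genes (2.43%) were higher and 18 (0.142%) were lower. The median slope at entry was 0.22 log2 units of a gene per log2 unit of CFB among the higher genes and -0.15 among the lower. At pulled the medians were 0.25 and -0.17, and at close-out 0.71 and -0.69. These medians cover only genes that passed, and the SD of CFB was 0.52 at close-out and 1.72 at pulled. Their sizes are therefore not compared between stages.

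These counts rest in part on the animals at the ends of the CFB range. At entry, leaving out animal 5 alone left 1166 and 538, and leaving out animals 5 and 11 left 624 and 157. Leaving out animal 11 or animal 16 alone left 1051 and 1000 lower genes at entry. Within the 18 animals at entry, 1135 genes were higher and 589 lower. With library totals in place of TMM the balance at entry turned, with 1405 higher and 3766 lower genes, so that 27.2% of the genes that passed were higher, against 58.9% with TMM. Without animals 2 and 19, the farthest from the median at pulled, 723 genes were higher and 461 lower at that stage. Leaving out animal 19 alone left 1086 and 1041. With all 24 libraries labelled pulled the counts were 1315 and 1067. At close-out the count hung on single animals: without animal 10, the highest there at 3.61 log2 CPM, 3 genes were higher and 0 lower (edgeR, 1912 genes at an unadjusted p under 0.05), and without animal 16 the counts were 1083 and 906. The higher count at close-out was 197 without animal 11, 156 without animal 12 and 163 without animal 21. The lower count there was between 2 and 11 without animal 6, 11, 12, 13, 17 or 21 and 46 without animal 23. In limma-voom 0 genes passed at close-out in either direction (2606 at an unadjusted p under 0.05), and in DESeq2 578 were higher and 107 lower.

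The genes that varied with CFB at entry and at pulled overlapped. Of the genes higher with CFB, 1537 passed at both stages, which is 67.2% of the entry list and 76.4% of the pulled list. Of the genes lower with CFB, 931 passed at both, 58.2% of the entry list and 53.4% of the pulled list. No gene passed at both stages in opposite directions. The entry fit covers 24 animals and the pulled fit 22 of them, with no library in both. The doubted pulled library that resembles entry of animal 11 is in neither. Within the 18 animals 800 genes passed as higher at both stages, 70.5% of the entry list and 43.6% of the pulled list. As lower at both, 287 passed, 48.7% and 22.1% of those lists, and 1 gene went in opposite directions. Without the 2 farthest animals of each stage, 304 genes were shared as higher, 48.7% of the entry list and 42% of the pulled list. As lower, 51 were shared, 32.5% and 11.1% of those lists, and 2 were opposite. Across 12654 genes, which are no replicates, the slopes at the 2 stages had an r of 0.78, of 0.68 within the 18 and of 0.56 without the farthest animals.

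Of the 2287 genes higher with CFB at entry, 97.8% had a positive slope at pulled and 62.5% at close-out. Of the 1599 genes lower with CFB at entry, 97.4% had a negative slope at pulled and 41.2% at close-out. Of the genes higher and lower with CFB at pulled, 59.4% and 36.1% kept their sign at close-out. Over all 12654 genes, 51.3% of slopes were positive and 48.7% negative at pulled, and 49.3% were positive and 50.7% negative at close-out. The difference between stages in these shares was not tested. The slopes of all genes at close-out correlated at 0.17 with those at entry and at 0.11 with those at pulled across genes. Of the 307 genes that passed as higher at close-out, 220 also passed as higher at entry and 210 at pulled, and 195 did so at all 3 stages. Of the 18 that passed as lower at close-out, 10 also passed as lower at entry and 7 at pulled. In the opposite direction, 4 genes lower with CFB at entry and 3 lower at pulled passed as higher at close-out, and no gene higher at entry or pulled passed as lower there. Without animals 10 and 20, 0 genes passed at close-out (edgeR, 1145 at an unadjusted p under 0.05). CFB varied less there, with an SD of 0.52 against 1.72 at pulled, and its counting error was a larger share of that spread. The part of either in the counts of genes at close-out was not tested.

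**Figure D4:**
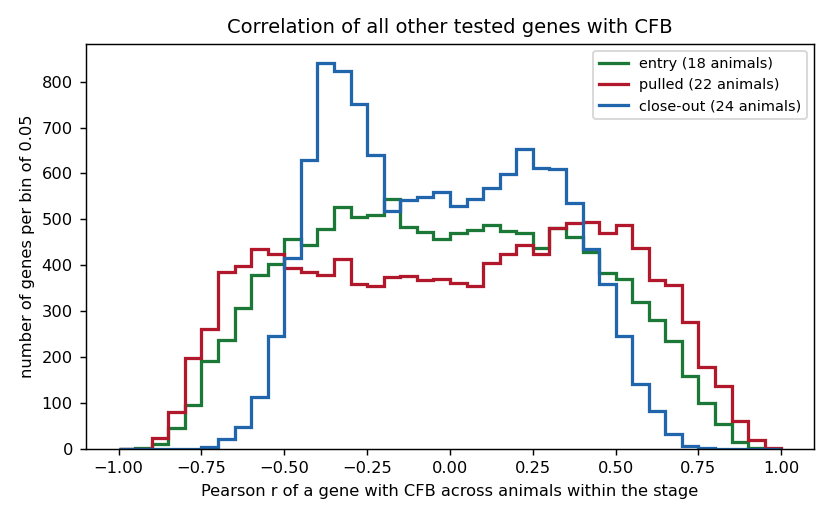
Number of genes per bin of 0.05 (vertical axis) by the Pearson r of the gene with CFB across animals of a stage (horizontal axis), for 12654 other genes. With 5% of the genes cut from each end, r spans -0.64 to 0.64 at entry over 18 animals, -0.69 to 0.70 at pulled over 22 and -0.47 to 0.48 at close-out over 24.

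CFB also followed the main axis of variation between animals at pulled. The first principal component of all other genes held 32.2% of the variance of the 22 pulled libraries, and its absolute r with CFB was 0.78. At entry the first component of the 24 libraries held 55.2% of the variance and had an absolute r of 0.03 with CFB, while the second held 11.4% and had one of 0.93. Within the 6 entry libraries the first component had an absolute r of 0.94 with CFB, and within the 18 the first 2 components had 0.58 and 0.67. At close-out the first 2 components had 0.39 and 0.34. Components were computed from the same libraries, and these values are a description with no test.

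The genes most like CFB were sought at pulled, over the 22 libraries, among 10394 genes with a mean level of at least 1 log2 CPM, and then followed in the other stages. The files give no names for them, so 2 with the highest and 2 with the lowest Pearson r are given by identifier. ENSBTAG00000008471 had the highest r at pulled, 0.96, with a rho of 0.94. Its level at pulled ran from 3.26 to 9.69 log2 CPM with a median of 6.63, and it changed by 0.81 log2 units (SE 0.05) per log2 unit of CFB. ENSBTAG00000024909 had an r of 0.95 and a rho of 0.90 at pulled, and a slope of 0.28 (SE 0.03). Its level at pulled ran from 8.48 to 10.5 log2 CPM with a median of 9.34.

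At the lower end, ENSBTAG00000009902 had an r of -0.88 and a rho of -0.82 with CFB at pulled, and a level between 3.94 and 6.12 log2 CPM with a median of 5.07. ENSBTAG00000040333 had an r of -0.88 and a rho of -0.85, and a level between 6.06 and 7.59 with a median of 6.86. With all 24 libraries labelled pulled, the r values of these genes, in the order named, were 0.86, 0.92, -0.79 and -0.80. These values chose the genes and are a description.

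Entry and close-out were not used to choose them. In the 18 entry libraries ENSBTAG00000024909 had an r of 0.80 with CFB (permutation p = 6e-05, adjusted 0.0009 over 30 tests) and a rho of 0.76 (adjusted p = 0.00675). ENSBTAG00000008471 had an r of 0.64 (permutation p = 0.00388, adjusted 0.0097) and a rho of 0.53 (adjusted p = 0.0987). ENSBTAG00000009902 had an r of -0.71 (permutation p = 0.00121, adjusted 0.00605) and a rho of -0.46 (adjusted p = 0.145). ENSBTAG00000040333 had an r of -0.65 (permutation p = 0.00355, adjusted 0.00968) and a rho of -0.50 (adjusted p = 0.0987). Without animals 11 and 16, r was 0.67 for ENSBTAG00000024909 (permutation p = 0.0042), 0.49 for ENSBTAG00000008471 (p = 0.0534), -0.39 for ENSBTAG00000009902 (p = 0.129) and -0.21 for ENSBTAG00000040333 (p = 0.432). The relations of ENSBTAG00000008471, ENSBTAG00000009902 and ENSBTAG00000040333 at entry thus kept their direction without those 2 animals. Each had a smaller absolute r that did not pass, which does not show that the relation was absent. In the 6 entry libraries, which include animal 5, r was 0.96, 0.95, -0.96 and -0.83 in the order of this paragraph.

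None of the 4 passed at close-out. There r was 0.31 for ENSBTAG00000008471 (permutation p = 0.137), 0.13 for ENSBTAG00000024909 (p = 0.535), -0.08 for ENSBTAG00000009902 (p = 0.717) and 0.07 for ENSBTAG00000040333 (p = 0.75), with adjusted p values of 0.237, 0.618, 0.768 and 0.776. Of the 10 genes with the highest r at pulled, 10 had a positive r at entry and 8 passed by r, but 2 by rho (permutation tests, adjusted over 30). Of the 5 with the lowest, 5 had a negative r at entry and 4 passed by r, but 0 by rho. At close-out 7 of the 10 and 3 of the 5 kept their sign and 0 passed. Over 12654 other genes the median r with CFB was -0.03 in the 18 entry libraries and -0.03 at close-out, so neither sign prevailed. In those entry libraries 5% of the genes had an r above 0.64 and 5% had one below -0.64. The share of all genes that would pass these permutation tests was not computed.

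**Figure D5:**
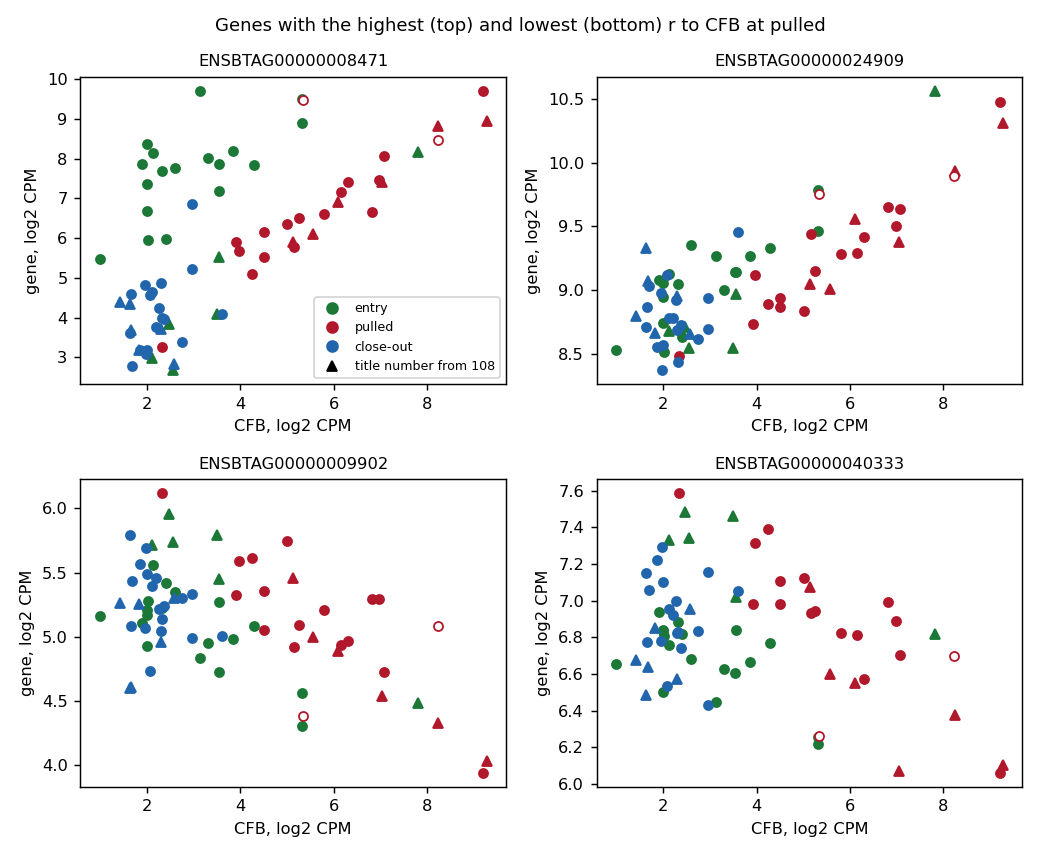
Level of 4 genes (vertical axes, log2 CPM) against the level of CFB (horizontal axes, log2 CPM), with 1 point per library coloured by stage, triangles for the animals with title numbers above 98 and open symbols for the doubted libraries. The pulled points of the upper genes climb with CFB (r of 0.96 and 0.95), those of the lower genes descend (both r -0.88), and the close-out points cluster at low CFB.

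Of the 10 genes with the highest r at pulled, 4 passed as higher in pulled against entry and 0 as lower, and 7 passed as lower in close-out against pulled and 0 as higher (edgeR, adjusted p under 0.05). The 4 were among the 7, and ENSBTAG00000024909 is one of them. Of the 5 genes with the lowest r, 0 passed in pulled against entry, and 1 passed as higher in close-out against pulled. Over all genes, 20.2% passed as higher and 21.9% as lower in pulled against entry. In close-out against pulled, 13.3% of all genes passed as higher and 13.9% as lower. The counts among these few genes were not tested against those shares. ENSBTAG00000008471 had levels between 2.67 and 9.70 log2 CPM with a median of 7.72 at entry, between 3.26 and 9.69 with a median of 6.63 at pulled, and between 2.78 and 6.85 with a median of 3.97 at close-out. Its entry and pulled ranges overlapped over most of their length. Its log2 fold change was -0.11 for pulled against entry (SE 0.44, edgeR adjusted p = 0.848) and -3.16 for close-out against pulled (SE 0.43, adjusted p = 1.76e-07). ENSBTAG00000024909 averaged 9.06 ± 0.46 log2 CPM at entry, 9.36 ± 0.49 in pulled libraries and 8.82 ± 0.26 at close-out (SD, n = 24), with log2 fold changes of 0.30 for pulled against entry (SE 0.12, edgeR adjusted p = 0.0402) and -0.56 for close-out against pulled (SE 0.12, adjusted p = 0.000275). ENSBTAG00000009902 and ENSBTAG00000040333 did not pass in any stage comparison (edgeR, adjusted p of 0.303 or more). Differences between the stage pattern of these genes and that of CFB were not tested.

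Measures of the library were also set against the CFB level. That level is itself divided by total counts and the TMM factor, which by itself lowers its r with either. The permutation tests do not allow for this, so nothing about the gene is read from r with those measures. In the 18 entry libraries, r with log2 total counts was 0.45 (permutation p = 0.0602), with the TMM factor -0.51 (p = 0.029) and with the number of genes with a count 0.24 (p = 0.336). In the 6 other entry libraries they were -0.02 (exact permutation p = 0.825), -0.69 (p = 0.0889) and -0.28 (p = 0.742), and animal 5 had the lowest TMM factor of the entry libraries, 0.676. At pulled these r values were 0.07 (permutation p = 0.764), -0.03 (p = 0.91) and -0.13 (p = 0.568). At close-out they were 0.09 (permutation p = 0.652), -0.40 (p = 0.0501) and -0.38 (p = 0.0627). The corresponding rho values were 0.55, -0.46 and 0.25 at entry, 0.04, -0.01 and -0.05 at pulled, and -0.05, -0.40 and -0.41 at close-out. None of the 9 passed by r or by rho after adjustment (lowest adjusted p = 0.141 and 0.131). Without the 2 libraries farthest in the TMM factor, its r with CFB was -0.40 in the 18 entry libraries (permutation p = 0.13) and -0.63 at close-out (p = 0.0012). Without the 2 farthest in total counts, the r of log2 total counts with CFB was 0.51 in the 18 entry libraries (permutation p = 0.0443). The part of these measures in the counts of genes was not tested beyond the fit with total counts. With log2 total counts as a further term, 1885 genes were higher and 1134 lower with CFB at entry, 1945 and 1669 at pulled, and 310 and 16 at close-out.

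The other complement genes (C3, factors D, H, I and P, the C1 and C4 components and the receptors), interferon-stimulated genes and the markers of blood cell types could not be set beside CFB. Of the 24616 identifiers 0 matched the RefSeq table, so lists of these genes, fixed by symbol, gave no values. Which cells carried the CFB transcript, and whether the share of a cell type moved with it, was not tested.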

How the data were processed

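Per the submitters' processing notes, reads were processed with TopHat2 and HTSeq on the build UMD3.1. The sources used here give no versions, annotation release or strand setting. The authors deposited raw counts of reads for each Ensembl gene, with no normalization. The labels' protocols give PAXgene blood, poly-A selection and a TruSeq kit. Columns that matched no sample numbered 0, and 4766 genes had no count.

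Counts were analysed in R 4.3.3. The edgeR 4.0.16 filter for the 3 stages kept 12655 genes, and TMM scaling was used. The stage fit was a quasi-likelihood model on 72 libraries with the animal as a block. Each SE is the size of the log2 fold change over the root of its F statistic. Covariate fits used the same genes without CFB, with the log2 CPM of CFB and the title-number set as terms. Calls used a Benjamini-Hochberg adjusted p of 0.05. Correlations were tested by two-sided permutation with 100000 resamples, or exactly with 6 animals (Python 3.11.15). DESeq2 1.42.0 and limma-voom (limma 3.58.1) were alternatives. The edgeR models were also run on simulated counts, with each gene drawn separately from the others. The outcome is not given here, and no result above rests on it.

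Libraries are paired by the animal that the labels name. Same-animal deviations from the stage means had a median correlation across genes of 0.06 for pulled with entry, 0.38 for close-out with pulled and 0.38 for close-out with entry.

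The gene, the gene lists and the doubted libraries were chosen with earlier results of these data known. Like genes were the 10 with the highest and the 5 with the lowest r at pulled, of which 2 and 2 are printed for want of names.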

Additional observations from a re-analysis of the deposited data

Results flagged for a closer look

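Among the 6 animals with title numbers above 98, which the design does not set apart, the entry level of CFB in animal 5 was 7.81 log2 CPM on 2638 reads, while the other 5 lay between 2.12 and 3.56. What drew attention is its wide gap to the others, given as a description, since stage levels chose the gene and the set was seen in these data. The close-out minus entry difference of the same animal was -6.14 log2 units and is no separate observation, since it uses that entry library. A screen for stray values picks out about 1 in 20 sets by chance. It was run on the levels at each stage and on each difference between stages of the 6 animals. At least 1 flag by chance is therefore likelier than 1 in 20. The pulled library of animal 5 was also high, at 8.24, and its close-out library was at 1.67.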

How the results depend on the processing

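The 3 log2 fold changes of CFB kept their direction under all 12 alternatives each and without each animal. They also moved by less than the SD of the within-animal differences. They ran from 2.65 to 3.16 for pulled against entry (2.71 to 3.103 without single animals), from -4.80 to -3.69 for close-out against pulled (-4.09 to -3.77) and from -2.01 to -0.87 for close-out against entry (-1.19 to -0.86). With no replicate block they were 2.67, -4.69 and -2.01. The SD of the within-animal differences was a wide limit. For close-out against entry it was 1.56, while the main estimate was -1.05, so staying within it says little there. The between-stage correlations passed under none of 4 alternatives each, with r from -0.33 to 0.09, from -0.26 to 0.06 and from -0.01 to 0.22. Without single animals r ran from -0.20 to 0.20, from -0.24 to -0.07 and from -0.13 to 0.18.

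The counts of genes that vary with CFB moved more. At entry (2287 higher, 1599 lower) they were 1147 and 415 without the title-number term, 1135 and 589 in the 18 animals, 1363 and 479 with ranks of CFB, 1405 and 3766 with library totals, and 624 and 157 without the 2 farthest libraries, an alternative chosen after the data were seen. Without single animals they ran from 1166 to 2410 and from 538 to 2224. At pulled (2013 and 1742) they were 1315 and 1067 with all 24 libraries and 723 and 461 without the 2 farthest, and without single animals 1086 to 2456 and 1041 to 2315. The other 9 alternatives at pulled stayed within 1.5 times. At close-out (307 and 18) they were 578 and 107 in DESeq2, 0 and 0 in limma-voom, with ranks (edgeR, 3158 at an unadjusted p under 0.05), with library totals (edgeR, 942) and without the 2 farthest. The lower count there was 7 in the 18 animals and 34 with RLE size factors. Without single animals they ran from 3 to 1083 and from 0 to 906. The cause of these shifts was not tested.

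Over the 24 animals, genes past the stage test's threshold numbered 5320 for pulled against entry, 3446 for close-out against pulled and 2812 for close-out against entry. In the 18 animals alone they were 8984, 3536 and 8199, and in the 6 alone 5142, 314 and 4990. At close-out CFB had 41 to 190 reads per library, with an SD from read counting of 0.17 and an SD between animals of 0.52. At entry these SDs were 0.14 and 1.46. The part of read counting in the close-out results was not tested.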
